A study of Mus musculus with 8 samples.

Results

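The proteasome is the protease that degrades ubiquitin-tagged proteins, and its subunits were examined here as a group of 42 genes among the 22180 genes with a probe set of their own on the array. The members were taken by symbol: every gene whose name starts with Psma, Psmb, Psmc, Psmd, Psme or Psmf, without the immune forms Psmb8, Psmb9 and Psmb10, with the probe set of the highest mean kept for each gene. Of the 42, Psmc3ip and Psme3ip1 share only the prefix and are no proteasome subunits, so they are given apart. Psma4 has no probe set of its own and is not analysed here. Psmb11, the thymus-specific β subunit, was too dim to test, above the dim limit (the 40th percentile of an array's values) in 3 of 8 arrays, at 2.87 to 3.92 (log2). The remaining 39 genes were tested.

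Liver RNA of male C57BL/6J mice was measured on whole-transcript arrays, with 4 arrays of wild type mice and 4 of mice that carry the E167K variant of Tm6sf2 as a knock-in, to ask how the variant acts on glucose and lipid metabolism. Wild type mice were littermates, and neither the age of the mice nor the number of mutant copies is given in the sources used here. The labels disagree on the diet, giving a high-fat diet for 20 weeks in one place and a fat-free, sucrose-rich diet or chow for 14 weeks in another, and they do not assign either to an array. Whether the arrays come from separate animals is not stated outright, so the p-values below rest on the spread between arrays, which may be technical.

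In the 26S proteasome, a barrel-shaped core particle (20S) is closed at its ends by regulatory caps (19S). The core stacks rings of α subunits, which form the gate, around rings of β subunits, 3 of which, Psmb5, Psmb6 and Psmb7, carry the protease sites. The base of the cap holds a ring of ATPases (Psmc genes) that unfold substrates, together with the scaffold and ubiquitin-binding subunits Psmd1, Psmd2 and Psmd4, and the lid holds the deubiquitinase Psmd14. Other caps, PA28 (Psme1 to Psme3) and PA200 (Psme4), open the core without ATP. In most cells the transcription factor Nfe2l1 raises the subunit genes together when proteasome activity is short. In the liver the proteasome also degrades apolipoprotein B that has not been loaded with lipid, the step of lipoprotein assembly next to which Tm6sf2 acts.

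Proteasome transcripts differed little between knock-in and wild type liver. The 39 tested genes, called subunit genes below, were 14 core genes, 17 cap genes, 3 assembly chaperones and 5 other activators or inhibitors. By limma with Benjamini-Hochberg adjustment over all 13449 tested genes, 0 of the 39 subunit genes passed the threshold of 0.05, where 0.0669% of all genes (9) did, and the smallest adjusted p among them was 0.322. At unadjusted p under 0.05 there was 1, Psmd4, lower in the knock-in, against 11.3% of all genes in either direction with 5.29% lower and 6.01% higher. The 4 knock-in arrays lay wholly below the wild type arrays in 1 gene, Psmd11, and wholly above them in 0, against 3.2% and 3.96% of all genes, 7.16% in all. Other limma settings also called 0 of them. Differences are given as log2 values, knock-in minus wild type. The median difference over the 39 was -0.04, against 0.0046 over all tested genes, with 26 lower and 13 higher; of all genes, 48.9% were lower. The median size of a change, whatever its sign, was 0.062 for the subunits and 0.117 for all genes. The median SE was 0.097 for the subunits and 0.127 for all genes, which were not matched to them in brightness.

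These arrays bounded most of the changes closely. For 36 of the 39 genes the 95% interval of the change lay within 1.5-fold in either direction, and for 32 it lay within 1.3-fold. Psmb3 was among the 32, but its probe set read only 4.67 to 5.02, so its interval bounds only a low signal. The share within 1.5-fold was 73.8% over all tested genes, whose median SE was larger. The 3 subunit genes with intervals past 1.5-fold were Psma5, Psma8 and Psme2. In whole liver, fewer cells of a type and less RNA per cell cannot be told apart.

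**Figure D1:**
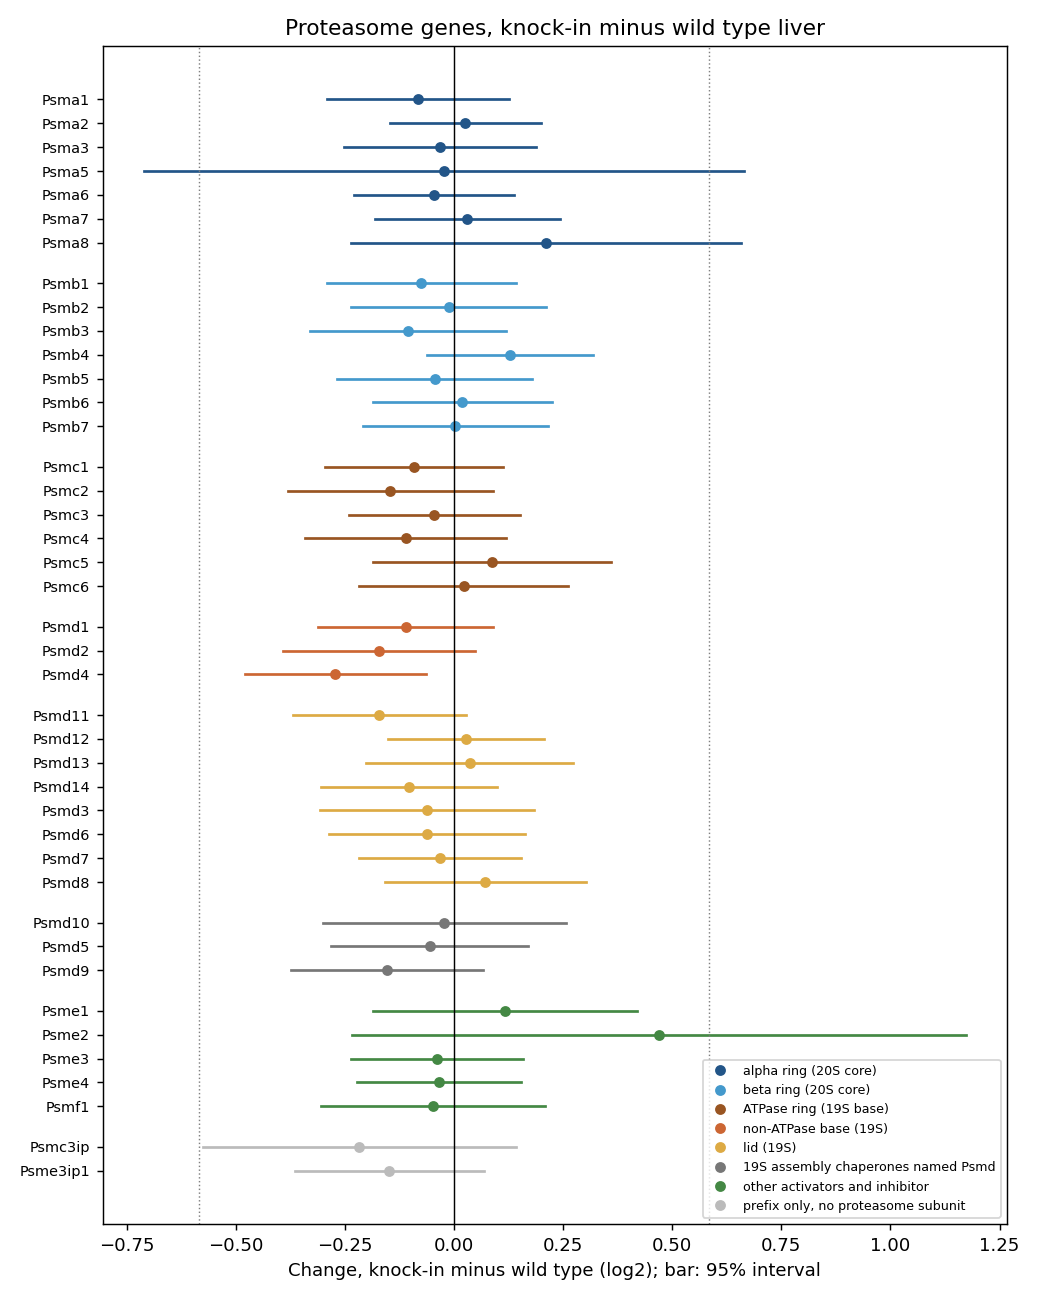
Change of each tested gene between knock-in and wild type liver (x axis, log2), with its 95% interval from limma as a bar, by class; dotted lines mark 1.5-fold. The interval of Psmd4 alone leaves out 0, and those of Psma5, Psma8 and Psme2 reach past a dotted line.

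The core showed no shared direction. Of its 14 tested genes, 8 were lower and 6 higher, with a median of -0.02. An unadjusted p under 0.05 was found for 0 of them, against 11.3% of all genes. In the α ring, the change was -0.08 for Psma1, 0.03 for Psma2, -0.03 for Psma3, -0.05 for Psma6 and 0.03 for Psma7, each with SE 0.08 to 0.10. Psma8, the α subunit of the testis, was at 0.21 (SE 0.20). Its probe set read between 4.43 and 5.28 in wild type liver and between 4.75 and 5.33 in the knock-in, above the dim limit of 3.46 to 3.50 in all 8. Psma5 was at -0.02 (SE 0.30), and its interval, -0.71 to 0.66, reaches past 1.5-fold either way. It read 4.85, 5.27, 4.76 and 4.20 in wild type replicates 1 to 4 and 4.17, 4.54, 5.53 and 4.74 in the knock-in. The second probe set of Psma5 was at the dim limit, 3.07 to 3.95, with a difference of -0.10.

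The catalytic β subunits lay at nearly the same level in both genotypes. Psmb5, the chymotrypsin-like subunit, read 8.22, 7.88, 8.15 and 7.96 in wild type and 7.92, 8.04, 8.01 and 8.07 in knock-in replicates 1 to 4. The knock-in arrays lay inside the wild type range, and the change was -0.04 (SE 0.10, limma adjusted p = 0.916). Psmb6, the caspase-like subunit, read 9.25, 9.15, 9.38 and 9.33 against 9.20, 9.39, 9.21 and 9.39, a change of 0.02 (SE 0.09, limma adjusted p = 0.965). Psmb7, the trypsin-like subunit, read 10.03, 10.05, 9.84 and 9.89 against 9.85, 9.98, 9.87 and 10.11, a change of 0.0028 (SE 0.09, limma adjusted p = 0.995). The groups overlapped in all 3 genes, and each interval reached at most 0.27 from 0. The signs of such small values are not settled: that of Psmb7 turned to -0.0068 on centring each array on its median, and that of Psmb6 turned on leaving out 1 array.

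Of the β subunits without a protease site, Psmb4 had the smallest p. It read 7.75, 7.81, 7.85 and 7.98 in wild type and 8.01, 8.04, 7.97 and 7.88 in knock-in replicates 1 to 4, so that 2 knock-in arrays lay above the highest wild type array. Its change was 0.13 (SE 0.08, limma adjusted p = 0.617). Psmb1, Psmb2 and Psmb3 were at -0.08, -0.01 and -0.11, with unadjusted p of 0.315 to 0.905. The probe set of Psmb3 read only 4.67 to 5.02, below every other tested β subunit.

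Cap genes lay slightly lower in the knock-in: 12 of 17 were lower and 5 higher, with a median of -0.06. Of the 17, 1 (Psmd4) had an unadjusted p under 0.05 and 1 (Psmd11) had groups that did not overlap, where the background in the lower direction was 5.29% and 3.2% of all genes. Leaving out 1 array at a time gave 11 to 14 lower genes and medians of -0.11 (without wild type replicate 2) to -0.02 (without wild type replicate 1). The median of the core changed sign, being 0.0071 when wild type replicate 1 was left out and 0.011 when knock-in replicate 1 was.

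Within the cap, the non-ATPase part of the base had the lowest median, -0.17, with all 3 tested genes lower. Adrm1, a further base subunit with no probe set of its own, was not among them. Psmd4, a receptor of the cap for ubiquitin chains (Rpn10), read 9.27, 9.08, 9.30 and 9.25 in wild type and 9.11, 8.93, 8.91 and 8.86 in knock-in replicates 1 to 4. The groups overlapped by 1 array each: knock-in replicate 1 lay just above wild type replicate 2. The means were 9.23 ± 0.10 and 8.95 ± 0.11 (SD, n = 4 each), a change of -0.27 (SE 0.09, 95% interval -0.48 to -0.06), or 0.828-fold, with unadjusted p = 0.0158 and limma adjusted p = 0.322. The change of Psmd4 was -0.33 to -0.24 on leaving out each array, with a smallest adjusted p of 0.292.

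Psmd2 and Psmd1 are the large scaffold subunits of the base (Rpn1 and Rpn2). Psmd2 read 9.70, 9.53, 9.68 and 9.71 in wild type and 9.60, 9.27, 9.52 and 9.53 in knock-in replicates 1 to 4. Its change was -0.17 (SE 0.10, limma adjusted p = 0.549), and wild type replicate 2 lay among the knock-in arrays. Without knock-in replicate 2 the change of Psmd2 was -0.10. Psmd1 read 10.07, 10.07, 10.11 and 10.03 against 10.12, 9.85, 10.02 and 9.85, a change of -0.11 (SE 0.09, limma adjusted p = 0.693). Knock-in replicate 1 was the highest array of all 8 for Psmd1, and knock-in replicates 2 and 4 the lowest.

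**Figure D2:**
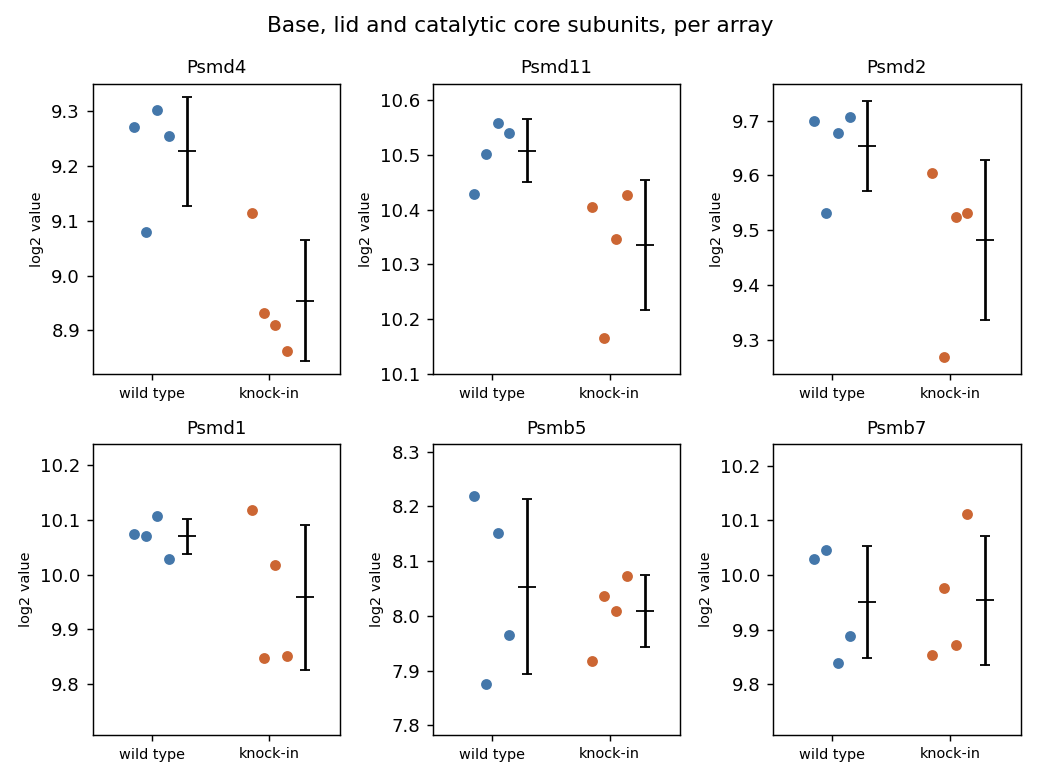
log2 values of 6 subunits in each array (points, replicates 1 to 4 from left to right) with mean and SD of 4 arrays per genotype; all panels span the same log2 range. Knock-in points of Psmd4 and Psmd11 sit mostly or wholly below the wild type points, while those of Psmb5 and Psmb7 sit among them.

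The ATPases of the base had 4 genes lower and 2 higher, with a median of -0.07. Psmc2 read 9.33, 9.13, 9.42 and 9.44 in wild type and 9.22, 9.05, 9.12 and 9.34 in the knock-in, a change of -0.15 (SE 0.10, limma adjusted p = 0.647). Its second, dimmer probe set was at -0.04. Psmc4 read 10.14, 9.85, 10.11 and 10.26 against 10.05, 9.91, 9.94 and 10.02, a change of -0.11 (SE 0.10, limma adjusted p = 0.741). Leaving out wild type replicate 2 gave -0.19 for Psmc4, and leaving out replicate 4 gave -0.05. For both genes the groups overlapped. Psmc1 and Psmc3 were at -0.09 and -0.04, and Psmc5 and Psmc6 at 0.09 and 0.02.

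In the lid, Psmd11 (Rpn6), which clamps the lid to the core, had the lowest value. It read 10.43, 10.50, 10.56 and 10.54 in wild type and 10.41, 10.16, 10.35 and 10.43 in knock-in replicates 1 to 4. The groups lay apart, but by a gap of only 0.0018 between wild type replicate 1 and knock-in replicate 4. Psmd11 differed by -0.17 (SE 0.09, 95% interval from -0.37 to 0.03), with unadjusted p = 0.0815 and limma adjusted p = 0.503, and -0.11 without knock-in replicate 2. Psmd14, the deubiquitinase that removes the ubiquitin chain as the substrate enters, read 7.08, 6.87, 6.80 and 7.02 against 6.87, 6.81, 6.90 and 6.79. Its groups overlapped, with a change of -0.10 (SE 0.09, limma adjusted p = 0.719), or -0.06 without wild type replicate 1. The other lid genes lay close to 0, with Psmd3 and Psmd6 at -0.06, Psmd7 at -0.03, Psmd12 at 0.03, Psmd13 at 0.04 and Psmd8 at 0.07.

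Set side by side, the array means of core and cap overlapped between genotypes. The mean over the 14 core genes was 8.33 ± 0.04 in wild type and 8.33 ± 0.08 in knock-in arrays (log2, SD, n = 4 each). The lowest core array was knock-in replicate 1, at 8.22, while the other 3 knock-in arrays lay at 8.36 to 8.38 and the 4 wild type arrays spanned 8.29 to 8.39. Without Psma5 and Psma8, whose values varied widely, the means over 12 core genes were 8.92 ± 0.04 and 8.91 ± 0.05, a difference of -0.016. Knock-in replicate 1 was then at 8.85 and wild type replicate 3 at 8.88. The comparison of core with cap below uses all 14 core genes. The mean over the 17 cap genes was 9.31 ± 0.08 and 9.24 ± 0.05. Wild type replicates 1 and 4, at 9.37 and 9.38, stood above the other 6 arrays, which lay at 9.19 to 9.28 and included both genotypes. The difference of core minus cap was -0.98 ± 0.06 in wild type and -0.91 ± 0.11 in knock-in arrays. It moved by 0.067 between genotypes, less than the SD of the knock-in arrays and just over that of the wild type, and was not tested, since core and cap were chosen with results of these data known. For the 3 non-ATPase base genes the means were 9.65 ± 0.06 and 9.46 ± 0.11, with a wild type range of 9.56 to 9.70 and a knock-in range of 9.35 to 9.61, so knock-in replicate 1 overlapped the wild type.

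**Figure D3:**
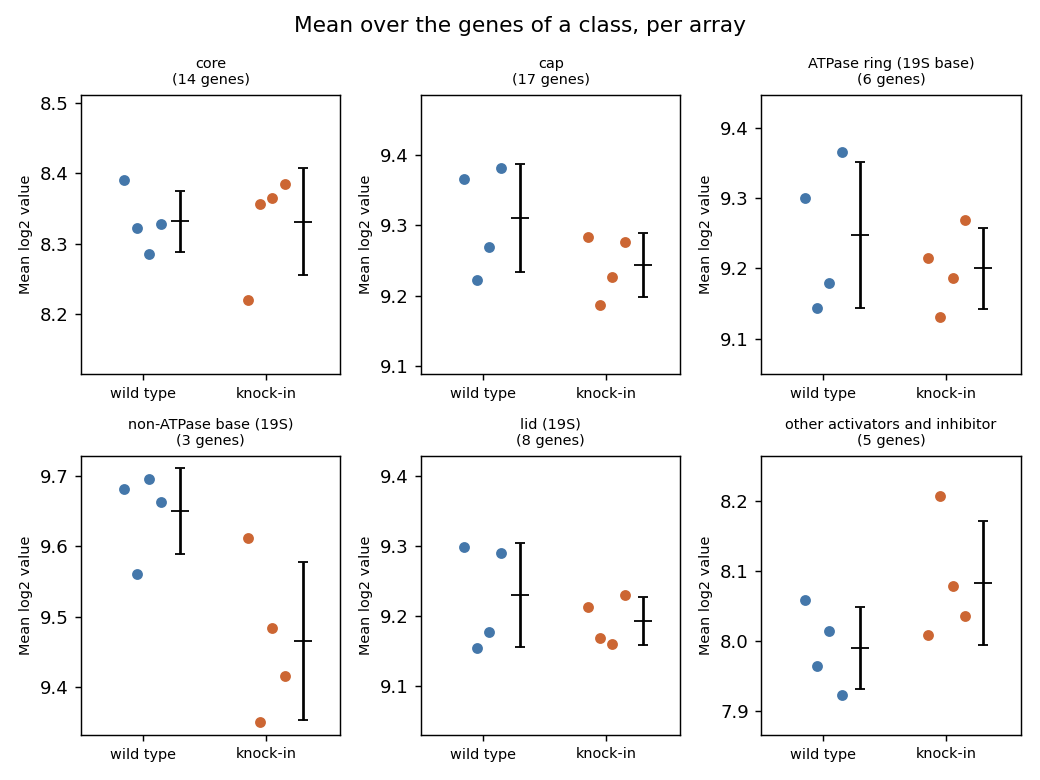
Mean log2 value over the genes of a class in each array (points, replicates 1 to 4 from left to right), with mean and SD of 4 arrays per genotype; all panels span the same log2 range. Wild type and knock-in points overlap in each of the 6 panels, least for the 3 non-ATPase base genes.

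Knock-in replicate 2 was the array most often lowest for cap genes. It was the lowest of the 8 arrays for 6 of the 17 cap genes but for 1 of the 14 core genes, and across all tested genes it was the lowest for 13.1%. In this array 14 cap genes lay below their own mean over the 8 arrays, against 1 in wild type replicate 4, 2 in wild type replicate 1 and 13 in wild type replicate 2. Without knock-in replicate 2 the cap median was -0.06 with 11 of 17 genes lower.

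Promoter sequences of 3 subunits are shown because they belong to the genes with the lowest p in the cap and to a catalytic subunit with a change near 0. They are the 250 bases before the annotated start, from RefSeq, assembly GRCm38.p6, 5′ to 3′ on the strand of the gene. Capitals mark CCGGAAG (the core of an ETS-type site) and CCAAT (the NF-Y box) in Psmd4, CCGGAAG in Psmd11, and TGACNNNGC (the core of the antioxidant response element, which Nfe2l1 and Nfe2l2 bind) in Psmb5, each searched on both strands. The windows are chr3:95042615-95042864 (minus strand) for Psmd4, chr11:80428365-80428614 (plus strand) for Psmd11 and chr14:54617996-54618245 (minus strand) for Psmb5.
Psmd4: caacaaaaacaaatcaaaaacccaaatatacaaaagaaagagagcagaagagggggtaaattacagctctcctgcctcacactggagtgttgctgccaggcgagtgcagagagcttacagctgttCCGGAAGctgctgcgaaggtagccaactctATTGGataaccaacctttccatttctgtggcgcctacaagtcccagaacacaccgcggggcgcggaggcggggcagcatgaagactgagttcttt
Psmd11: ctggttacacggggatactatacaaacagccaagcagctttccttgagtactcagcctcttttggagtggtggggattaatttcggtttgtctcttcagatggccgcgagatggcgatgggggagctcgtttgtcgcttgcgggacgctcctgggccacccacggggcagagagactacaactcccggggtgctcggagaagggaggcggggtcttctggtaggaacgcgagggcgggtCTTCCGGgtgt
Psmb5: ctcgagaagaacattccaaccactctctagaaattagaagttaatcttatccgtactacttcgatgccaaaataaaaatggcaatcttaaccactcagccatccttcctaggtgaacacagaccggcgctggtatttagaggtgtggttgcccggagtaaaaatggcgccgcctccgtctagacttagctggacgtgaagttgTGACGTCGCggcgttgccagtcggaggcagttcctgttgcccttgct
In Psmd4 the CCGGAAG match ends 118 bases and the CCAAT match 90 bases before the start, in Psmd11 the match ends 4 bases and in Psmb5 38 bases before it.

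Of the 40 members that are proteasome genes, 33 had a window in the promoter table, 36 windows in all; Psma8, Psmb1, Psmb2, Psmb7, Psmc3, Psmd3 and Psmd7 had none. CCGGAAG stood in 12 of 36 member windows (33.3%) and in 6.91% of all 32851 windows. It was in 9 of 15 cap windows and 1 of 12 core windows. TGACNNNGC stood in 5 of 36 (13.9%) against 10.2% of all windows, in Psmb5, Psmb6, Psmc6, Psmd12 and Psmd9, and its variant TGAGNNNGC in 8 of 36 (22.2%) against 14.4%. CCAAT was in 13 of 36 (36.1%) against 33.8%, with 7 of 12 core and 4 of 15 cap windows. GCGCANGCG, most of the site of nuclear respiratory factor 1, was in 5 of 36 (13.9%) against 5.16%, the heat shock element core GAANNTTC in 2 of 36 (5.56%) against 6.69% and TATAAA in 3 of 36 (8.33%) against 12.4%. GAANNTTC reads alike on both strands, and matches of different motifs may overlap. These 7 motifs were chosen with the promoters in view, and the shares describe the windows only.

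Activators other than the 19S cap gave the highest value and the widest interval. Psme2, the PA28β subunit, which interferon induces, read 6.05, 5.72, 5.02 and 4.77 in wild type and 5.61, 6.52, 5.62 and 5.68 in knock-in replicates 1 to 4. The groups overlapped: wild type replicates 1 and 2 lay above 3 of the 4 knock-in arrays, and knock-in replicate 2 was the highest array of all 8. Psme2 differed by 0.47 (SE 0.31, interval from -0.23 to 1.17, limma adjusted p = 0.619), and by 0.25 without knock-in replicate 2. Leaving out wild type replicate 4 gave 0.26 for Psme2, and leaving out replicate 1 gave 0.69. Psme2b is a near-identical copy of this gene, so which copy was measured is uncertain. Its partner Psme1 (PA28α) read 8.97, 8.83, 9.29 and 9.32 against 9.003, 9.29, 9.31 and 9.26, a change of 0.12 (SE 0.13, limma adjusted p = 0.804). The change of Psme1 was 0.07, 0.03, 0.18 and 0.19 without wild type replicates 1 to 4 in turn and 0.19 without knock-in replicate 1.

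Psme3 (PA28γ, the nuclear form) read 7.45, 7.58, 7.72 and 7.64 in wild type and 7.58, 7.47, 7.61 and 7.57 in the knock-in, a change of -0.04 (SE 0.09, limma adjusted p = 0.916). Psme4 (PA200) read 9.80, 9.89, 9.79 and 9.84 against 9.81, 9.65, 9.89 and 9.84, a change of -0.03 (SE 0.08, limma adjusted p = 0.925). The inhibitor Psmf1 (PI31) read 8.04, 7.80, 8.25 and 8.06 against 8.05, 8.11, 7.97 and 7.83, a change of -0.05 (SE 0.11, limma adjusted p = 0.918). In all 3 genes the groups overlapped. The chaperones that assemble the base, Psmd5, Psmd9 and Psmd10, were at -0.06, -0.15 and -0.02. Psmd9 read 7.53, 7.43, 7.76 and 7.74 against 7.50, 7.49, 7.46 and 7.40 (SE 0.10, limma adjusted p = 0.602), so wild type replicate 2 lay among the knock-in arrays.

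The prefix-only genes also lay lower in the knock-in, by values that did not pass. Psmc3ip, a recombination factor of meiosis, read 4.10, 3.71, 4.07 and 3.47 in wild type and 3.61, 3.87, 3.54 and 3.46 in knock-in replicates 1 to 4, near the dim limit. Its change was -0.22 (SE 0.16, limma adjusted p = 0.658), with -0.13, -0.14 and -0.34 without wild type replicates 1, 3 and 4. Psme3ip1, which binds PA28γ, read 8.57, 8.42, 8.78 and 8.63 against 8.35, 8.51, 8.47 and 8.48. Its change was -0.15 (SE 0.10, limma adjusted p = 0.610), or -0.09 without wild type replicate 3. The groups overlapped in both.

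The immune forms of the core, which replace the catalytic β subunits after interferon, were outside the group and are given for comparison. Psmb8 read 7.63, 7.58, 7.76 and 7.83 in wild type and 7.58, 7.97, 7.95 and 8.15 in the knock-in, a change of 0.21 (SE 0.13, limma adjusted p = 0.585). Psmb10 read 7.61, 7.60, 7.74 and 7.67 against 7.63, 7.93, 7.97 and 7.97, a change of 0.22 (SE 0.10, limma adjusted p = 0.452). For both, 3 knock-in arrays lay above the highest wild type array, while knock-in replicate 1 was close to the lowest wild type arrays. Psmb9 was at -0.05 (SE 0.11, limma adjusted p = 0.920). Interferon-stimulated genes had 12 of 14 members lower (median -0.47), 6 of them at unadjusted p under 0.05 and 0 past the threshold. Of all genes, 11.3% had an unadjusted p under 0.05. Usp18 was at -0.76 (SE 0.21), Stat2 at -0.47 (SE 0.13), Rsad2 at -0.70 (SE 0.22) and Isg15 at -0.52 (SE 0.16).

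Factors that build the proteasome or control its genes had no member past the threshold. Of the 5 assembly factors of the core, 3 were higher and 2 lower, at -0.07 to 0.07, with Pomp, the maturation factor of the β rings, at -0.07 (SE 0.15, limma adjusted p = 0.908). Nfe2l1, the activator of the subunit genes, read 8.48, 8.57, 8.59 and 8.52 in wild type and 8.60, 8.63, 8.38 and 8.50 in the knock-in, a change of -0.02 (SE 0.08, limma adjusted p = 0.968). The related factor Nfe2l2 (NRF2) was at -0.14 (SE 0.10, limma adjusted p = 0.639), and its partner Mafg at 0.29 (SE 0.11, unadjusted p = 0.0342, limma adjusted p = 0.382). Nfya, a subunit of the factor NF-Y that binds CCAAT, is named after its values were seen, as the one gene of this control list whose groups lay apart. It read 7.53, 7.47, 7.62 and 7.52 in wild type and 7.17, 6.46, 7.45 and 7.44 in knock-in replicates 1 to 4, with knock-in replicate 2 the lowest, a change of -0.40 (SE 0.20, unadjusted p = 0.0782, limma adjusted p = 0.497). Among the 10 tested genes of the list 5 were higher and 5 lower, and the median size of a change was 0.130, against 0.117 for all genes. The groups lay apart in 1 of the 10, against 7.16% of all genes. Of 10 NRF2 targets, 6 were lower. An unadjusted p under 0.05 was found for 1, Srxn1 at -0.50 (SE 0.14, limma adjusted p = 0.252), against 11.3% of all genes. In the knock-in, the arrays lay wholly below the wild type in 1 NRF2 target, against 3.2% of all genes. It was Gsr at -0.16, also named after its values were seen.

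Of 12 proteins that bind the proteasome, 9 were lower (median -0.05), and Zfand2a, an arsenite- and heat-inducible cofactor, had the lowest value, -0.37 (SE 0.12, unadjusted p = 0.0150, limma adjusted p = 0.319). Sem1, a small lid subunit whose symbol lies outside the group, was at 0.0029. Adrm1, a subunit of the base whose symbol also lies outside the group, had no probe set of its own and was not tested. Of 7 genes of ubiquitin activation and of the segregase VCP with its partners, 6 were lower (median -0.13). Uba6, which activates ubiquitin, was at -0.36 (SE 0.12, unadjusted p = 0.0176, limma adjusted p = 0.327).

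Heat shock proteins, the folding arm of protein quality control, showed larger changes than the proteasome genes. All 10 tested genes were lower, with a median of -0.43 against -0.04 for the 39 proteasome genes. Of the 10, 6 had an unadjusted p under 0.05, against 11.3% of all genes, and 1 passed the threshold, against 0.0669% of all genes. That one, Hspa1a, read 5.64, 5.97, 5.80 and 5.69 in wild type and 4.85, 5.01, 4.92 and 5.08 in knock-in arrays and fell by 0.81 on the log2 scale (SE 0.10, limma adjusted p = 0.0439). It passed under 6 of 16 alternatives, and in 0 of the 8 among these that left out an array, with limma adjusted p of 0.0284 to 0.161 over the 16. Its close copy Hspa1b was at -1.89 (SE 0.29, limma adjusted p = 0.0583), Hsp90aa1 at -0.53 (SE 0.13) and Hspb1 at -0.96 (SE 0.25). Since Hspa1a and Hspa1b are near-identical, the share of each is uncertain. The folding machine CCT, another large complex, had 6 of 8 subunits lower with a median of -0.05 and 0 at unadjusted p under 0.05.

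**Figure D4:**
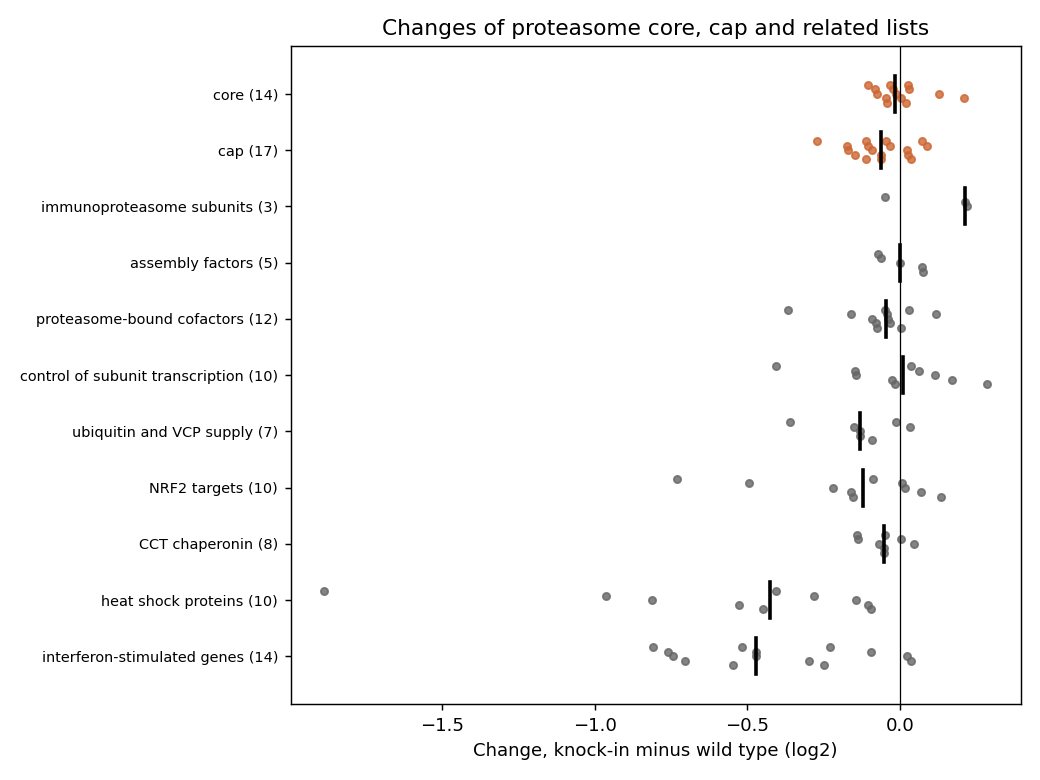
Change of each tested gene (points, x axis, log2 knock-in minus wild type) in the proteasome core and cap and in related lists, with the median of each list as a black line and the number of genes in brackets; the vertical spread of points has no meaning. Core and cap lie within 0.28 of 0, while heat shock proteins reach -1.89.

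The tissue label held on its markers: 10 of 10 hepatocyte markers were tested, at group means of 9.91 to 13.6, with a median change of 0.01. Among them Serpina1a, a serum protease inhibitor with close copies in the mouse, was at -0.35 (SE 0.13, unadjusted p = 0.0209, limma adjusted p = 0.340). Fah, named after its values were seen, was at 0.17 with groups that lay apart, as they did in 7.16% of all genes. Over 7 lists of other liver and blood cells, 16 of 34 tested markers were higher and 18 lower, and 0 passed the threshold. At unadjusted p under 0.05 there were 2 markers, against 11.3% of all genes, both higher in the knock-in. These were Jchain, of plasma cells, at 1.04 (SE 0.25, limma adjusted p = 0.184), and Lyve1, of sinusoidal endothelium, at 0.73 (SE 0.23, limma adjusted p = 0.295). Array medians were 3.73 to 3.80, and any 2 arrays correlated at 0.973 to 0.980 over all probe sets. Tm6sf2 carries a coding change, which these values do not show, so the genotype labels were not checked on it.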

How the data were processed

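Values are log2 expression per probe set as deposited, normalized by the authors over the 8 arrays with RMA; limma is the other tool in the submitters' processing notes, and no version is named. RMA makes the distributions of arrays nearly equal and would remove a shift of most genes. No source used here names the array's genome build. Of 41345 probe sets, 23521 carried exactly 1 gene symbol, 1814 several and 16010 none. Symbols were checked by identifier against RefSeq (GRCm38.p6), and 0 changed. Each gene took its brightest probe set by mean. Genes entered the test when 4 or more of the 8 arrays exceeded the dim limit, the 40th percentile of the array over probe sets with 1 symbol (13449 of 22180 genes). The groups were compared with limma 3.58.1 in R 4.3.3 (a two-sided test of genotype alone, default settings, Benjamini-Hochberg over all tested genes), checked on simulated data. Arrays have no read depth, and their number limits the precision.

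Every subunit was named. Values in each array were given for the 12 members with the smallest p, the catalytic subunits, Psmd14, the other activators and Psmf1, and, chosen after values were seen, Psma5. From related and cell marker lists, genes with unadjusted p under 0.05 were named (up to 4 each), with Nfe2l1, Nfe2l2, Pomp and Psmb8 to Psmb10 in any case; Sem1, Nfya, Gsr and Fah were added after their values were seen. Interferon, NRF2, heat shock, CCT, ubiquitin and cell marker lists were used. The members and lists were chosen with earlier results of these data known, so counts and medians over a list were given with no test. Alternatives were other filters, a further quantile normalization, centring, another variance prior, array weights, the mean of probe sets, the replicate block and leaving out each array. Replicate numbers were not taken as pairs.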

Additional observations from a re-analysis of the deposited data

Results flagged for a closer look

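In 130 groups of 4 arrays (the tested members and the named related genes, each in both genotypes), 7 held an array far from the other 3, where chance gives about 1 in 20. Among members, wild type replicate 2 read 9.53 for Psmd2 (the others 9.68 to 9.71), knock-in replicate 1 read 9.003 for Psme1 (the others 9.26 to 9.31) and knock-in replicate 2 read 6.52 for Psme2 (the others 5.61 to 5.68). Among related genes, knock-in replicate 1 read 7.63 for Psmb10 (the others 7.93 to 7.97) and knock-in replicate 4 read 8.32 for Stat2 (the others 7.78 to 7.83). In wild type, replicate 2 read 7.07 for Srxn1 (the others 7.59 to 7.61) and replicate 1 read 7.39 for Rsad2 (the others 8.03 to 8.09).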

How the results depend on the processing

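The count of proteasome genes past the threshold was 0 under each of the 16 alternatives, the replicate block among them, and the smallest adjusted p of a member ran from 0.194 (trended and robust prior) to 0.530 (without knock-in replicate 2). Psmd4 kept its direction and an unadjusted p under 0.05 in each. Among the 41 tested members, the 2 prefix-only genes included, 1 to 2 had an unadjusted p under 0.05 on leaving out each array. Psme2 was added without wild type replicate 1, Psmd9 without wild type replicate 2 and Psmc3ip without wild type replicate 4. With the trended and robust prior there were 2, Psmd11 being added. The share of all genes at unadjusted p under 0.05 was 8.95% to 11.5% on leaving out each array and 12.2% with that prior. Over all genes, the number past the threshold was 9 in the main setting, 2 with no filter, 23 with the stricter filter, 73 with the trended and robust prior, 25 with array weights and 24 with the mean of probe sets. Leaving out each array gave 1 to 12: 3, 1 and 2 without wild type replicates 1, 2 and 4, and 1, 4 and 1 without knock-in replicates 1, 2 and 3. The cause was not tested. Deviations from the group mean correlated at 0.101, -0.105, -0.03 and -0.04 between arrays of the same replicate number, for replicates 1 to 4. Arrays of unlike number correlated at -0.09 to 0.107, so these values do not settle whether arrays of the same number belong together. With the replicate block 2 genes passed, and the limma adjusted p was 0.467 for Psmd4 and 0.161 for Hspa1a. With no filter that of Hspa1a was 0.0869.

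Signs of values near 0 changed. Psmb7 was at -0.0068 after a further quantile normalization and on centring, and -0.0039 with array weights. On leaving out each array, Psmb5 ran from -0.10 to 0.012, Psmb6 from -0.023 to 0.054, Psmb7 from -0.050 to 0.036, Psme3 from -0.089 to 0.0016, Psme4 from -0.065 to 0.016 and Psmf1 from -0.13 to 0.023.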
